A study of Mus musculus with 6 samples.

Results

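Cdx1, Cdx2, Cdx4, T, Tbx6, Mixl1, Eomes, Meox1, Mesp1 and Fgf8 encode factors of the posterior body axis and the early mesoderm. They were found on the array by the gene symbol of each probe's RefSeq accession, which gave 12 probes for all 10 genes, of 41174 probes and 17174 named genes in all. RNA came from P19 cells, derived from a mouse teratocarcinoma and able to become neurons when grown as aggregates with retinoic acid, and was hybridised to 6 single-colour arrays. One line expressed AICD, the intracellular domain of the amyloid precursor protein, and the control line carried the empty pCDNA vector. Both were sampled undifferentiated, aggregated (4 days as aggregates in 5e-07 M all-trans retinoic acid) and differentiated (2 days after replating of such aggregates). There was 1 array for each line and state, so no value has a replicate culture, and the number of arrays limits the precision. The promoter that drives AICD and the number of clones behind each line are not given in the sources used here. Of 15 listed pluripotency markers of embryonal carcinoma cells 13 had a probe, and 12 of these were kept, being well above background on at least 2 arrays. All 12, Pou5f1 and Sox2 among them, were well above background on both undifferentiated arrays, a count that the filter favours.

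In the gastrulating embryo, epiblast cells enter the primitive streak under Nodal, Wnt and BMP signals and turn on the T-box factors Eomes and T (Brachyury) and the homeobox factor Mixl1. Mesp1 follows in nascent mesoderm, Tbx6 in presomitic mesoderm and Meox1 in somites, while Fgf8 is a secreted signal of the streak and tail bud. The Cdx homeobox factors act in the posterior growth zone upstream of Hox genes, and retinoic acid and Wnt signals are known to act on them. P19 cells take the mesodermal route mainly when aggregated with dimethyl sulfoxide in place of retinoic acid.

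The bases upstream of 4 of these genes are shown because Cdx2, T and Eomes are 3 of the 4 genes that differ between the lines in aggregates, and because Cdx4 is a relative of Cdx2 with no signal above background. For Fgf8, the fourth, no window was used here. Each run is the 250 bases before the start of the gene in RefSeq's GRCm38.p6 annotation, 5′ to 3′ along the gene's strand, with motif matches in capitals.
Cdx2, chr5:147307250-147307499, minus strand: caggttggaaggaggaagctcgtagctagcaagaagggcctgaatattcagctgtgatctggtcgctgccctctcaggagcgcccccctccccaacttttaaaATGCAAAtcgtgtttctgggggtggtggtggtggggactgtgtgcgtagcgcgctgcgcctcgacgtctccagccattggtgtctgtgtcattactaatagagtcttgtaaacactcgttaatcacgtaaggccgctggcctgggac
Cdx4, chrX:103321148-103321397, plus strand: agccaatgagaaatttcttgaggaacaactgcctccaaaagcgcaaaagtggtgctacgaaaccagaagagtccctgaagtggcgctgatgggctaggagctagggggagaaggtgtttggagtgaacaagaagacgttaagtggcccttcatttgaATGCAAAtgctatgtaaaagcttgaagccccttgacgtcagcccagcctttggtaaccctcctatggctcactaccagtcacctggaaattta
T, chr17:8434173-8434422, plus strand: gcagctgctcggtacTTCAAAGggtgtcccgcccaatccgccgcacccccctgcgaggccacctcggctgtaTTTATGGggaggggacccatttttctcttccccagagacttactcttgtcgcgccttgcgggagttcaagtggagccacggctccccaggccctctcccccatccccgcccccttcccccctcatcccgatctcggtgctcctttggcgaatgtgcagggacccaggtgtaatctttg
Eomes, chr9:118477939-118478188, plus strand: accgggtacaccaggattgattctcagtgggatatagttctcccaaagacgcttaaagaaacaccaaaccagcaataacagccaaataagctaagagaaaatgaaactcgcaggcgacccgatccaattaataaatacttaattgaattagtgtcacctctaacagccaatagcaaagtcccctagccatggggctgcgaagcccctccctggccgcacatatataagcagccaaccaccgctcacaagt
The 6 motifs searched, on both strands, were AGGTCA (core of retinoic acid receptor sites), CTTTGAA and CTTTGAT (TCF/LEF, the Wnt effectors), GGTGTGA (T-box), ATGCAAA (the octamer bound by Oct4 and its relatives) and TTTATNG (Cdx). They occur in 14.0%, 4.46%, 3.21%, 3.33%, 4.12% and 9.81% of 32851 RefSeq windows of the same length. The Cdx2 window holds the octamer 147 to 141 bases before the start, and the Cdx4 window holds it 93 to 87 bases before. In the T window a TCF/LEF match lies 235 to 229 bases before the start on the opposite strand, and a Cdx match 178 to 172 bases before. The Eomes window holds none of these letters. Of the other windows used, that of Tbx6 holds a Cdx match (44 to 38 bases before, opposite strand) and that of Mesp1 holds CTTTGAA (73 to 67 bases before, opposite strand) and CTTTGAT (31 to 25 bases before). No window was used for Cdx1, Meox1 or Mixl1. No match overlapped another, and a match describes letters, not a bound site.

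Levels are given as the normalized log2 signal, the log2 of a probe's brightness minus that of its array's 75th percentile, so that 0 is a probe at that percentile. A probe's level is compared only with itself on other arrays. Where Feature Extraction, the scanner software, did not call a probe well above background on 1 of 2 arrays, the fold is a lower bound. It then sets the brighter signal against the dim probe's own signal or the lowest signal called well above background on the dim array, whichever is higher. T, Tbx6 and Fgf8 were well above background on all 6 arrays and Eomes on 4. Cdx2 and Meox1 passed on the 2 aggregated arrays and Mesp1 on the 2 undifferentiated arrays. Cdx1, Cdx4 and Mixl1 passed on 0 of 6. The 7 genes with at least 2 such arrays entered the tests, and since Cdx2, Meox1 and Mesp1 entered through 1 state, a step to or from that state was bound to appear for them.

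**Figure D1:**
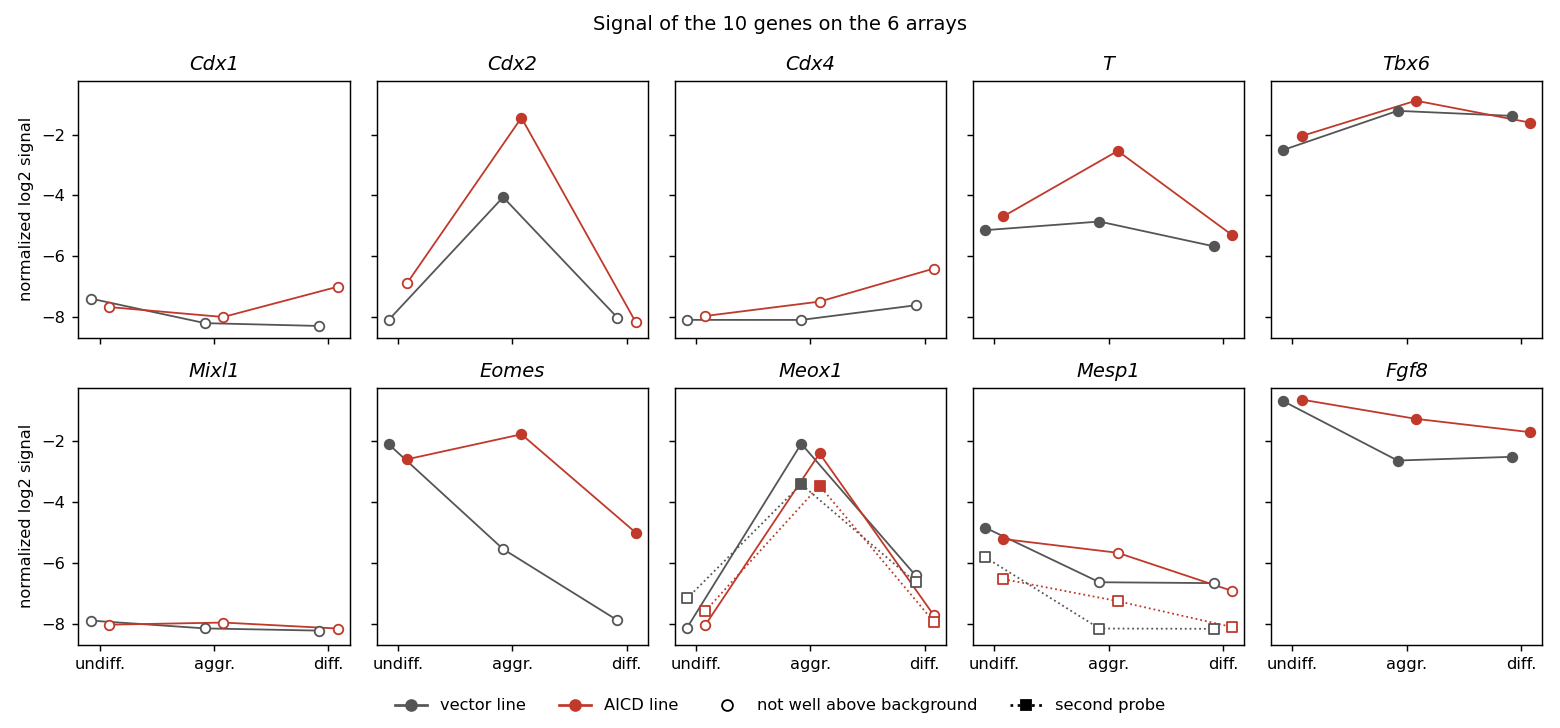
Normalized log2 signal (vertical axis) of the 10 genes in the undifferentiated, aggregated and differentiated states (horizontal axis), 1 array per point, vector line grey and AICD line red. Open symbols were not well above background and squares are a second probe of the gene. Cdx2 reaches -1.45 and T -2.54 on the AICD aggregated array, and Eomes stays at -1.76 there while the vector line lies at -5.54.

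Among the Cdx factors, Cdx2, which in the embryo acts in the trophectoderm and the tail bud, was detected in aggregates of both lines and in neither of the other states. Its level in vector cells was -8.09 undifferentiated, -4.06 aggregated and -8.02 differentiated. In AICD cells it was -6.88, -1.45 and -8.16 in the same order. The 2 aggregated arrays stood above the other 4, and of these 2 the AICD array was higher by 2.61, a 6.11-fold difference. Against the undifferentiated array of its own line, Cdx2 was at least 3.57-fold higher in vector aggregates and at least 20.1-fold higher in AICD aggregates. After replating it lay at least 3.86-fold below aggregates in vector cells and at least 22.2-fold below them in AICD cells. Cdx1, a target of retinoic acid and Wnt signals in the embryo, gave levels from -8.29 to -7.01 and Cdx4 from -8.10 to -6.41, in each case dim on every array. For these 2 genes a change below the level of detection could not be seen.

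T, the notochord and primitive streak factor for which the T-box family is named, was measured by 10 spots of 1 probe on each array. Its level was -5.14 undifferentiated, -4.86 aggregated and -5.67 differentiated in the vector line. The AICD line had -4.69, -2.54 and -5.30. The AICD aggregated array was the highest of the 6, with its 10 spots between -2.78 and -2.38 and the 10 spots of the vector aggregated array between -5.28 and -4.67. T was thus 5.00-fold higher in AICD than in vector aggregates, a log2 difference of 2.32. The 2 lines differed by 0.46 in the undifferentiated state, where their spots overlapped, and by 0.37 in the differentiated state. With another background correction (normexp) the undifferentiated levels were -2.99 in AICD and -2.95 in vector cells, so that difference changed sign. The differentiated levels were then -3.32 in AICD and -3.47 in vector cells. Within the AICD line T was 4.44-fold higher in aggregates than before and 6.79-fold lower after replating, and within the vector line these steps were 1.22-fold up and 1.76-fold down. Spots of 1 array share 1 RNA sample and measure the precision of the array, not the spread between cultures.

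**Figure D2:**
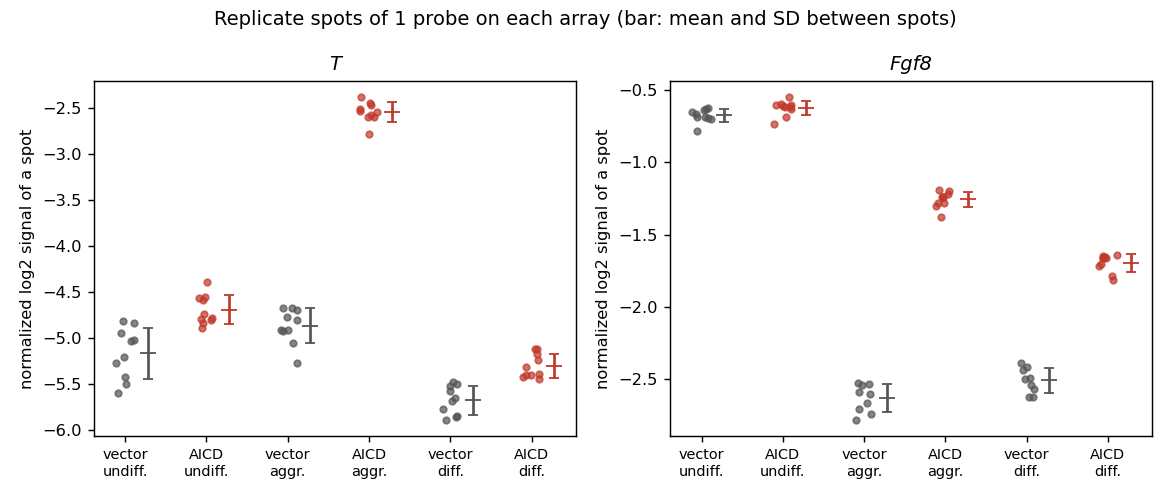
Normalized log2 signal of each spot (vertical axis) for T and Fgf8 on the 6 arrays (horizontal axis), with the mean and SD between spots of the same array (9 or 10 spots) beside the points. The T spots of the AICD aggregated array (-2.78 to -2.38) lie above all others, and the Fgf8 spots of the aggregated arrays do not overlap between the lines.

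Eomes, a T-box factor that starts endoderm and cardiac mesoderm programmes in the streak, stepped in opposite directions in the lines at aggregation. In vector cells it went from -2.10 undifferentiated to -5.54 aggregated and -7.88 differentiated, the last 2 not well above background. AICD cells had -2.59, -1.76 and -4.997, all well above background. The undifferentiated arrays differed by -0.49, while AICD aggregates had at least 13.7-fold more Eomes signal than vector aggregates, and differentiated AICD cells at least 2.02-fold more. Between the undifferentiated and aggregated states it was at least 10.9-fold lower in the vector line and 1.77-fold higher in the AICD line, and on replating it was 9.39-fold lower in the AICD line. Tbx6, which directs presomitic cells to mesoderm rather than neural tissue, was lowest in undifferentiated cells of both lines. Its levels in the vector line were -2.51, -1.22 and -1.39 in the order of the states, and in the AICD line -2.05, -0.89 and -1.61. Both undifferentiated arrays were below the other 4. The line difference was 0.46, 0.33 and -0.22. Tbx6 has 1 spot per array and so no replicate spots of its own. For replicated probes above background a difference between 2 spots of an array had an SD of 0.135 on the log2 scale. The line differences of Tbx6 exceeded this SD, the differentiated one by the least, which does not show that the arrays differ. There was no measure of the spread between cultures.

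Of the remaining mesoderm factors, Meox1, a homeobox factor of the somite, was detected in aggregates of both lines. Its levels were -8.13, -2.08 and -6.40 in vector cells and -8.04, -2.39 and -7.72 in AICD cells. Aggregates were at least 14.1-fold above undifferentiated cells in the vector line and at least 10.5-fold in the AICD line, and the differentiated state was at least 15.3-fold and 11.5-fold below aggregates. A second probe had the same course, with -3.41 and -3.45 on the vector and AICD aggregated arrays and no detection elsewhere. The lines differed in aggregates by -0.32 on the first probe and by -0.05 on the second. The first is larger than the SD of 0.135 between replicate spots of other probes above background and the second smaller. Each Meox1 probe has 1 spot per array, so its own spread between spots is not known. Mesp1, a factor of the first cardiac mesoderm, was dim. It was detected on the undifferentiated arrays, at -4.83 in vector cells and -5.21 in AICD cells, and lay between -6.91 and -5.66 on the other 4 arrays. A second Mesp1 probe was not well above background on any array. Mixl1, a homeobox factor of the streak, stayed between -8.22 and -7.89, dim on all 6 arrays.

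Fgf8, the ligand of the group, was measured by 10 spots of 1 probe, of which 9 were used on the vector aggregated and vector differentiated arrays. Vector cells had -0.68 undifferentiated, -2.63 aggregated and -2.51 differentiated, and AICD cells -0.62, -1.26 and -1.70. The 2 undifferentiated arrays were highest and differed by 0.05, with overlapping spots. In aggregates Fgf8 was 2.59-fold higher in the AICD line (a log2 difference of 1.37), with AICD spots between -1.38 and -1.19 and vector spots between -2.78 and -2.53. In the differentiated state it was 1.75-fold higher, again with no overlap between spots. From the undifferentiated to the aggregated state it was 3.87-fold lower in the vector line and 1.55-fold lower in the AICD line.

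Between the lines, Cdx2, T, Eomes and Fgf8 were higher in AICD than in vector aggregates. Of 6 genes detected on at least 1 aggregated array, Cdx2, T, Eomes and Fgf8 were at least 2-fold higher in AICD cells and 0 were lower, where 5.02% of 12722 genes were higher by that rule and 3.95% lower (8.97% in all). Of 5 genes in the undifferentiated state, 0 differed by that much in either direction (4.72% of all genes higher, 4.58% lower, 9.30% in all). In the differentiated state Eomes was higher, 1 of 4 (5.42% of all genes higher, 4.70% lower, 10.1% in all). The 4 aggregated differences stayed above 1 with normexp background correction (1.89 for Cdx2, 1.21 for T, 1.91 for Eomes and 1.07 for Fgf8). The differentiated difference of Eomes did not, with -3.24 in AICD and -3.76 in vector cells under that correction, so its bound depends on the background handling. With 1 array against 1 these are values without a test. Over the 3 states, with the state as a block, limma called 0 of the 7 genes (47 of 13377 genes called, 0.351%, of which 0.209% higher and 0.142% lower), 0 of the 7 had an unadjusted p under 0.05, and the adjusted p lay between 0.425 and 0.931. The fitted line difference was 2.06 ± 0.92 for Eomes (limma standard error, 3 arrays per line, 95% interval -0.48 to 4.60), 1.22 ± 0.57 for Cdx2 (-0.35 to 2.80), 1.05 ± 0.46 for T (-0.23 to 2.33) and 0.74 ± 0.29 for Fgf8 (-0.06 to 1.55). Tbx6 had 0.19 ± 0.19, Mesp1 0.11 ± 0.32 and Meox1 -0.51 ± 0.32. Signals not well above background enter these fits at face value, for Eomes on the vector aggregated and differentiated arrays. The same holds for Cdx2, Mesp1 and Meox1, so these sizes are not exact. The error of this test comes from how far a gene's line difference varied over the states, and for Cdx2, T and Eomes it varied widely.

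**Figure D3:**
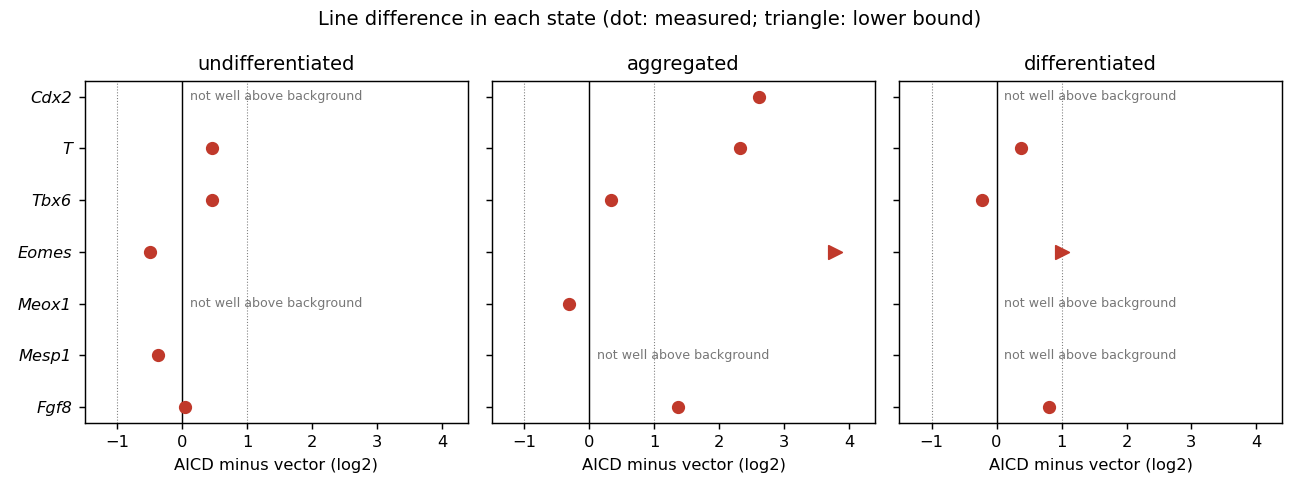
AICD minus vector difference in normalized log2 signal (horizontal axis) of the 7 tested genes in each state, 1 array per line. Dots are measured on both arrays, triangles are lower bounds, dotted lines mark 2-fold. Cdx2 (2.61), T (2.32), Fgf8 (1.37) and Eomes (bound of 13.7-fold) lie to the right in aggregates.

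Of 12 measured pluripotency markers, 6 were at least 2-fold higher in AICD than in vector aggregates and 0 that much lower, Pou5f1 (Oct4) by 5.59 and Gdf3 by 5.79 on the log2 scale. Their summed signal, in multiples of the array's 75th percentile, was 12.8 in vector and 26.7 in AICD aggregates, against 199.6 and 176 in the undifferentiated and 6.43 and 28.3 in the differentiated state. All 12 were well above background on both aggregated arrays. Below 0 lay Esrrb (-0.95), Sox2 (-0.47), a factor that neural progenitors share, Dppa5a (-0.36) and Utf1 (-0.03). Of 8 mesenchyme markers 7 were at least 2-fold lower in AICD aggregates, with Pdgfrb and Thy1 not well above background there, and their sums were 0.948 in AICD and 7.09 in vector aggregates. Before aggregation 4 of the 8 were already at least 2-fold lower in AICD cells and 1 was higher. The mesenchyme sums were then 2.03 in AICD and 4.13 in vector cells. Of 5 endoderm markers the 3 measured on both arrays differed by less than 2-fold, Foxa2 was at least 1.61-fold lower and Gata4 at least 1.98-fold higher in AICD aggregates, and their sums were 2.26 in AICD and 2.06 in vector aggregates. Of 9 neural progenitor markers 0 were that much higher and 1 lower, Hes5, which was not well above background in AICD aggregates. Hes5 was at least 3041-fold lower there, and was already 8.76-fold lower in AICD cells before aggregation. The other 8, measured on both aggregated arrays, lay between -0.35 and 0.25 with a median difference of 0.03. The sums with Hes5 included were 55.8 in AICD and 120 in vector aggregates, and most of that gap is the Hes5 signal. Of 11 neuron markers 4 were higher and 0 lower (sums of 92.0 in AICD and 57.1 in vector aggregates). Whether these cell types account for the difference in Cdx2, T, Eomes and Fgf8 was not tested. In RNA from whole cultures more cells of a kind and more RNA per cell cannot be told apart.

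Read within each line, with 1 array per state and no test, the group split in vector cells at aggregation. There Cdx2, Tbx6 and Meox1 were at least 2-fold higher and Eomes, Mesp1 and Fgf8 at least 2-fold lower, 3 and 3 of 7 (12.8% of all genes higher, 23.2% lower, 36.1% in all). In AICD cells Cdx2, T, Tbx6 and Meox1 were higher and 0 of 7 lower (11.6% higher, 18.7% lower, 30.3% in all). After replating, Cdx2 and Meox1 were lower in vector cells, 2 of 5 with 0 higher (11.8% of all genes higher, 11.5% lower, 23.3% in all). In AICD cells Cdx2, T, Eomes and Meox1 were lower, 4 of 6 with 0 higher (7.33% higher, 4.85% lower, 12.2% in all). Over the whole course Tbx6 was higher and Eomes, Mesp1 and Fgf8 lower in vector cells, 1 and 3 of 5 (18.5% higher, 33.5% lower, 52.0% in all). In AICD cells Eomes and Fgf8 were lower, 2 of 5 with 0 higher (14.4% higher, 25.0% lower, 39.4% in all). Steps of Cdx2 and Meox1 to and from aggregates, and of Mesp1 from the undifferentiated state, enter these counts through the filter, so the shares are given as descriptions.

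Steps between the states were tested with the line as a block. From undifferentiated to aggregated cells, Tbx6 rose by 1.22 ± 0.23 (limma, adjusted p = 0.0247) and was higher on both aggregated arrays. The fit gave Cdx2 4.73 ± 0.70 (adjusted p = 0.0173) and Meox1 5.85 ± 0.39 (adjusted p = 0.00869), but these genes entered the tests through the aggregated arrays, so their p-values support nothing and their bounds above describe the step. Limma thus called 3 of 7 genes higher and 0 lower, and 14.3% of all genes higher and 27.8% lower, 42.1% together; nothing is read from this count, since the filter chose 2 of the 3. Fgf8 had -1.29 ± 0.36 (adjusted p = 0.0518), Mesp1 -1.12 ± 0.40 (0.0852), T 1.22 ± 0.57 (0.149) and Eomes -1.31 ± 1.13 (0.381). Over all genes the median step was -0.31. The call of Cdx2 ended with normexp correction (1.28, adjusted p = 0.108). Without either aggregated array limma called 0 of the 7, without the vector undifferentiated array it called Meox1 alone, and without the AICD undifferentiated array it called Eomes and Fgf8 too, 5 in all. The undifferentiated arrays lay on 1 slide and the other 4 on a second slide, so for this step and the whole course slide and state cannot be told apart.

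**Figure D4:**
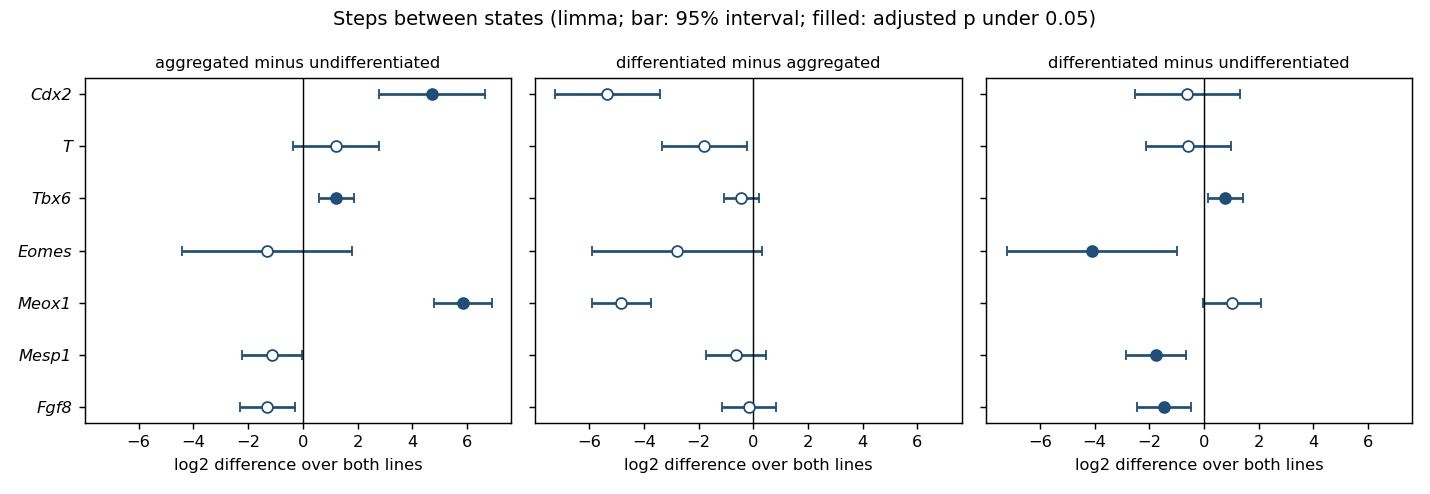
Steps between states over both lines (horizontal axis, log2 difference) for the 7 tested genes, with the 95% interval of the limma estimate, not adjusted for the number of genes; filled points have an adjusted p under 0.05. Cdx2 and Meox1 entered through the aggregated and Mesp1 through the undifferentiated arrays. Cdx2 and Meox1 are higher by 4.73 and 5.85 at aggregation and have -5.34 and -4.82 after replating.

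After replating, on arrays of 1 slide, limma called 0 of the 7 genes and 0 of 13377 overall (0.00%), with 3 of the 7 and 4340 of all genes at an unadjusted p under 0.05. The 3 were Cdx2 (-5.34 ± 0.70, adjusted p = 0.0684), Meox1 (-4.82 ± 0.39, adjusted p = 0.0661) and T (-1.79 ± 0.57, adjusted p = 0.128), and all 7 estimates were negative. For Cdx2 and Meox1 a fall from aggregates was bound to appear, as above. With an intensity trend in limma's variance model, Cdx2 and Meox1 passed (adjusted p = 0.0468 for each), and with normexp correction Meox1 did (-1.96, adjusted p = 0.0301). Over the whole course Eomes fell by 4.10 ± 1.13 (limma, adjusted p = 0.0379) and Fgf8 fell by 1.45 ± 0.36 (adjusted p = 0.0291), while Tbx6 rose by 0.78 ± 0.23 (adjusted p = 0.0448). The size for Eomes takes a vector differentiated signal that was not well above background at face value. By the bound, Eomes was at least 15.1-fold lower in the vector line, and it was 5.32-fold lower in the AICD line. Mesp1 had -1.76 ± 0.40 (adjusted p = 0.0228), a description only, since it entered the tests through the undifferentiated arrays. With Mesp1 that is 4 of 7, against 61.4% of all genes (20.1% higher, 41.3% lower), a share near the background. Cdx2, T and Meox1 had -0.61, -0.57 and 1.02 and did not pass. Without the vector differentiated array 0 of the 7 passed, without the AICD differentiated array Tbx6 and Meox1 (1.62, adjusted p = 0.0324), and without the vector undifferentiated array Eomes alone. The call of Tbx6 also ended without any 1 of the AICD undifferentiated, vector aggregated or AICD aggregated arrays, with quantile normalization (0.68, adjusted p = 0.0643) and with no filter on dim probes (adjusted p = 0.0608). Eomes did not pass without that filter either (adjusted p = 0.0592). With normexp correction Eomes (-1.43, adjusted p = 0.0583) and Mesp1 (-0.57, adjusted p = 0.0557) did not pass.

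Genes around these factors were read from lists of related functions. At aggregation limma called 14.3% of all genes higher and 27.8% lower. In aggregates 5.02% of all genes were at least 2-fold higher in AICD cells and 3.95% lower. In the posterior growth zone list, 11 of 15 genes were measured, of which 3 rose and 2 fell at aggregation (limma, median 0.22 against -0.31 over all genes). Cyp26a1, which degrades retinoic acid, rose by 5.39 ± 0.69 (adjusted p = 0.0149) and Gdf11, a ligand of trunk-to-tail patterning, by 1.43 ± 0.16 (adjusted p = 0.0133), while Nkx1-2, a factor of the caudal progenitor zone, fell by 1.63 ± 0.19 (adjusted p = 0.0138) and the RNA-binding gene Lin28b fell by 1.90 ± 0.48 (adjusted p = 0.042). Sp5, a Wnt target, was the third riser and was well above background on 3 arrays. Neither undifferentiated array was among these, so a rise was bound to appear for it. Between the lines in aggregates, 4 of 11 were at least 2-fold higher in AICD cells and 2 lower. Wnt8a, a Wnt ligand of the streak, was at least 10.07-fold higher and Sp8 at least 47.2-fold higher, whereas Sp5 was 14.0-fold lower and Cyp26a1 2.72-fold lower. These 4 were chosen after their values were seen, as were the other list genes named below for single states.

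Of 14 measured primitive streak and gastrulation genes, 2 rose and 5 fell at aggregation (limma, median -0.42), shares near the 14.3% and 27.8% of all genes. Lefty2, among the 5, entered the tests through the undifferentiated arrays, so a fall was bound to appear for it. The Wnt ligand gene Wnt3 rose by 4.64 ± 0.39 (adjusted p = 0.0112) and Lhx1, an organizer factor that neurons also use, by 3.78 ± 0.24 (adjusted p = 0.00862), and the Nodal effector Foxh1 fell by 1.55 ± 0.18 (adjusted p = 0.0132), as did the endoderm factor Gata6 (-0.72 ± 0.19, adjusted p = 0.0445). In aggregates 3 of 13 were at least 2-fold higher in AICD cells and 3 lower. The organizer factor Gsc was 3.28-fold higher, the Nodal co-receptor Tdgf1 3.21-fold higher and Bmp4 3.69-fold lower. Fst was at least 6.17-fold higher, and Zic2 was 2.41-fold and Wnt3 2.28-fold lower. Before aggregation Wnt3 was already 6.08-fold and Zic2 3.20-fold lower in AICD cells. Tdgf1 was then 1.93-fold and Fst 1.30-fold higher, while Gsc was 1.48-fold lower and Bmp4 1.54-fold higher. Of 11 measured paraxial mesoderm and somite genes 4 rose and 2 fell at aggregation. The Notch pathway genes Dll3 (3.42 ± 0.25, adjusted p = 0.00955), Dll1 (2.64 ± 0.26, adjusted p = 0.0124) and Lfng (2.38 ± 0.21, adjusted p = 0.0116), which also act in neurogenesis, were among the risers, as was Pax3, a factor of dorsal neural tube and somite. Pax3 was well above background on 4 arrays, neither undifferentiated array among them, so a rise was bound to appear for it. The 2 that fell, Hes7 and Rspo3, were well above background on the undifferentiated arrays alone, so their falls were bound to appear too. Msgn1 and Hes7, which mark presomitic mesoderm, were well above background on the 2 undifferentiated arrays and on 0 of the other 4. In aggregates 0 of 8 somite genes were at least 2-fold higher in AICD cells and 2 were lower, Tcf15 by 2.31-fold and Aldh1a2, a retinoic acid synthesis enzyme, by at least 5.47-fold. Before aggregation Tcf15 was already 1.35-fold and Aldh1a2 2.89-fold lower in AICD cells.

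Lateral and cardiac mesoderm genes were mixed, with 2 of 9 called higher and 1 lower at aggregation (limma). Smarcd3, a subunit of the BAF chromatin remodeller, rose by 2.60 ± 0.26 (adjusted p = 0.0126), and the MADS-box factor gene Mef2c fell by 1.56 ± 0.16 (adjusted p = 0.0128). The other gene called higher, Isl1, was well above background on 3 arrays. Neither undifferentiated array was among these, so a rise was bound to appear for Isl1. Between the lines in aggregates, 2 of 9 were at least 2-fold higher in AICD cells and 3 lower, among them Nkx2-5 (14.9-fold). Nkx2-5 was already 30.4-fold lower in AICD cells before aggregation, and was 9.79-fold lower after replating. For the receptors and feedback genes of FGF signalling, all 14 were measured, and 2 rose and 5 fell at aggregation (limma, median -0.89). These shares lie near the 14.3% and 27.8% of all genes. The receptor genes Fgfr2 (1.69 ± 0.26, adjusted p = 0.0186) and Fgfr3 (1.66 ± 0.20, adjusted p = 0.0141) rose. The feedback inhibitors Spry2 (-1.75 ± 0.38, adjusted p = 0.0315) and Spred2 (adjusted p = 0.0285) fell, as did Fgfr1 (-0.80 ± 0.21, adjusted p = 0.0462). Spry4, also among the 5, was well above background on neither aggregated array, so a fall was bound to appear for it. Between the lines in aggregates 3 of 13 were at least 2-fold higher in AICD cells and 1 was lower. The 12 measured on both arrays had a median of 0.02 (0.03 over all genes). The 3 were Etv4 (6.39-fold), Etv5 (at least 2.81-fold), both transcription factors induced by FGF signals, and Il17rd (2.09-fold), an FGF antagonist, and the lower gene was Fgfr4 (2.81-fold). Other FGF readouts did not differ that much, with Dusp6 at -0.06, Spry2 at -0.02 and Spry1 at -0.49. Among 6 measured T-box genes outside the group, 0 rose and 1 fell at aggregation, Tbx21, a factor of T lymphocytes (-1.87 ± 0.33, limma, adjusted p = 0.0228). Tbx1 was 14.5-fold and Tbx15 at least 29.1-fold higher in AICD than in vector aggregates, and both were already higher before aggregation (5.62-fold and at least 37.6-fold). Over the 3 states limma called 0 genes of any of these 6 lists between the lines.

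Likeness of course was measured as the root mean square difference between 2 genes' levels over the 6 arrays, each centred on its own mean, among named genes. The 3 closest genes to Cdx2 were Cryge (0.835), Dct (1.05) and Chrnb4 (1.09), each well above background on 2 or 3 arrays, and to T they were Gas7 (0.417), Hspa1b (0.430) and Pygm (0.447). Eomes lay closest to Qprt (0.772), Gsc (0.843) and Prex2 (0.857). Gsc, like Eomes a gene of the streak, had -2.15, -5.46 and -7.09 in vector cells and -2.71, -3.74 and -5.11 in AICD cells in the order of the states. The genes closest to Meox1 were Nppc (0.452), Rarb (0.476) and Ptf1a (0.612). Rarb, the retinoic acid receptor gene that retinoic acid itself induces, had -3.25, 3.13 and -1.26 in vector cells and -1.81, 2.58 and -1.97 in AICD cells. Fgf8 was closest to Hspa2 (0.165), Gulo (0.190) and Speg (0.190), Mesp1 to Car9 (0.130), Olfr1466 (0.168) and Dnmt3a (0.208), and Tbx6 to Morn2 (0.101), Gabarap (0.101) and Cux1 (0.117). Among the 7 genes themselves the closest pair was Mesp1 and Fgf8 (0.404) and the farthest Meox1 and Eomes (3.46). Signals not well above background entered these distances at face value. That holds for Gsc on the vector differentiated array and for Eomes on the vector aggregated and differentiated arrays. Gulo and Olfr1466 were well above background on 2 arrays and Ptf1a on 3. With 6 arrays these distances are descriptions, and genes with a small range have small distances to many genes.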

How the data were processed

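Per the file headers, the authors extracted the arrays in Agilent Feature Extraction (version 10.1.1.1). The deposited processed signal used here is an intensity with the background subtracted and spatial trends removed on each array, not yet scaled across arrays. Between 62.0% and 65.9% of the non-control spots of an array were well above background, and 0 were saturated. Spots flagged as outliers were left out, spots of a probe were averaged before the log2, and each array's 75th percentile was subtracted. Probes well above background on at least 2 of 6 arrays were kept, with the probe of highest mean for each gene, which left 13377 genes. Symbols came from RefSeq accessions in an annotation of GRCm38 (24836 of 41174 probes matched), while the array header names another build, so no probe coordinates are given.

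The model (limma 3.58.1 in R 4.3.3) had terms for state and line, with 2 residual degrees of freedom and a prior worth 2.05, and Benjamini-Hochberg adjustment over all genes at 0.05. All tests are two-sided, and the procedure was tested on simulated data. Nothing in the labels says that samples came from separate cultures, so the spread may be technical. The deposited value table is a score; the authors' scale was read as the log2 signal set against the array's 75th percentile and centred on each probe, with a negative value written as the reciprocal of its size. Within 0.05, between 99.8% and 99.9% of its listed values matched this, with column medians between 0.967 and 1.23. Only 1 of 12 probes of these genes is listed on all arrays, so the score was not used further. Alternatives covered the background correction (normexp with an offset of 50 on the spot's median signal, since these files hold no mean signal), normalization, filter, probe choice, variance model, slide and each array in turn. All 10 genes are named in every comparison; from each list up to 3 called genes per direction, well above background on all 6 arrays and largest in difference, are named, and others were chosen after their values were seen. The genes and lists were chosen with earlier results of these data known.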

Additional observations from a re-analysis of the deposited data

Results flagged for a closer look

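Eomes took opposite steps in the lines between the undifferentiated and aggregated states, with a log2 difference of 0.82 in the AICD line and -3.44 in the vector line, where the aggregated array was not well above background. Each step was larger than the SD of a difference between replicate spots over all replicated probes, dim ones included (0.347). Eomes has 1 spot per array, so this SD comes from other probes. The difference between the lines was not tested, since each line has 1 array per state.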

How the results depend on the processing

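No paired analysis was possible because each line and state has 1 array and the labels carry no replicate numbers; line and state served as blocks of each other. Between the lines limma called 0 of the 7 genes under each of the 13 alternatives run, leaving out each array included. For the step to aggregates the 3 calls became 0 to 5 when 1 array was left out. After replating the count of 0 became 1 with normexp correction and 2 with an intensity trend. Over the whole course the 4 calls became 2 with normexp correction, 2 with no filter on dim probes and 2 with probes well above background on all 6 arrays, and 0 to 3 with 1 array left out; the stricter filter tests 3 of these genes. All-gene calls between the lines numbered 76 with normexp correction, 0 with no filter, 0 when any 1 array of the second slide was left out, and 97 without either undifferentiated array, as in the fit to the second slide. After replating, the all-gene count of 0 became 1401 with normexp correction, 1087 with the trend and 733 with the stricter filter. Of 334 refitted values of single genes 7 changed sign. With 1 array left out, Mesp1 ranged from -0.31 to 0.36 between the lines and from -1.28 to 0.00159 after replating, Fgf8 from -0.63 to 0.31 after replating, Eomes from -3.22 to 0.60 on aggregation and Cdx2 from -1.63 to 0.42 over the whole course. Meox1 had -0.28 over the whole course with normexp correction; the cause was not tested. Dim signal limits Cdx1, Cdx4 and Mixl1 throughout and Mesp1 outside the undifferentiated state. The comparison with the deposited value table was not run, since it lists 1 of the 12 probes on all arrays.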
